A study of Caenorhabditis elegans with 2 samples.

Results

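The mir-51 family of the nematode Caenorhabditis elegans comprises 6 microRNA (miRNA) genes, cel-mir-51 to cel-mir-56, of 261 miRNA genes in the Ensembl annotation of assembly WBcel235 (ce11). The genes were taken by name, and every CEH-24-GFP peak was assigned to a gene if its summit lay between 2000 bp upstream of the annotated hairpin's 5′ end and 250 bp downstream of its 3′ end. The peaks come from chromatin immunoprecipitation and sequencing (ChIP-seq) with an antibody against GFP. The material was whole late embryos of mixed sex from strain OP673, collected 5 h after the culture was synchronized by egg bleaching. This strain carries the mutation unc-119 (tm4063) III and the transgene wgIs673, from which CEH-24 with a C-terminal GFP-FLAG tag is stably expressed. The data are 2 biological replicates of this 1 group, so there is no second condition, and the cell types behind a peak cannot be told apart in whole embryos.

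CEH-24 belongs to the NK-2 class of homeodomain proteins, which bind DNA and regulate transcription, and is known from pharyngeal and vulval muscle and from sublateral motor neurons. A miRNA is cut from a hairpin in its primary transcript, and one arm of the hairpin is loaded into an Argonaute protein, where the seed, bases 2 to 8 from the 5′ end, pairs with target messenger RNAs. The mir-51 family is the worm branch of the conserved miR-99/miR-100 family. Its members are abundant in embryos and act redundantly: loss of the whole family is lethal to the embryo, and a failure of the pharynx to stay attached has been reported.

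The mature miRNAs are shown first because they define the family and separate the chromosome IV genes from the X cluster. They were read from the RefSeq annotation and genome sequence of WBcel235, 5′ to 3′, with the seed in capitals. The IV genes carry the family seed on the 5′ arm of the hairpin and the X genes on the 3′ arm.

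miR-51, 5′ arm, chromosome IV: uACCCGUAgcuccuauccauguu
miR-52, 5′ arm, chromosome IV: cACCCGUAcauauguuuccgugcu
miR-53, 5′ arm, chromosome IV: cACCCGUAcauuuguuuccgugcu
miR-54, 3′ arm, chromosome X: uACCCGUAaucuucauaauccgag
miR-55, 3′ arm, chromosome X: uACCCGUAuaaguuucugcugag
miR-56, 3′ arm, chromosome X: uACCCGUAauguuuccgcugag

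All 6 mature miRNAs share the seed ACCCGUA, and no other gene among the 260 with an annotated mature miRNA had it at these positions. The closest pair is miR-52 and miR-53, which match at 23 of 24 positions. Their only difference is A12U, counted from the 5′ end with the miR-52 base first. Their hairpins were 79% identical in a global alignment, against 43.56% to 57.14% for every other pair of family hairpins.

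The 6 genes form 3 loci. The hairpin of cel-mir-52 (WBGene00003280, IV 14034008 to 14034107, plus strand, 100 bp) stands apart from the other family hairpins. It lies 9772 bp from the nearest annotated start of a protein-coding gene. The hairpins of cel-mir-51 (WBGene00003279, IV 11026013 to 11026112) and cel-mir-53 (WBGene00003281, IV 11027593 to 11027691) lie on the minus strand with 1480 bp between them, so they are neighbours rather than single loci, and mir-53 lies within the upstream window of mir-51. The nearest annotated start of a protein-coding gene is that of hrg-5, 3316 bp upstream of mir-51 and 1737 bp upstream of mir-53. The hairpins of cel-mir-54 (WBGene00003282, X 13144996 to 13145094), cel-mir-55 (WBGene00003283, X 13144827 to 13144924) and cel-mir-56 (WBGene00003284, X 13144691 to 13144787) are separated by 71 bp and 39 bp. They lie inside the protein-coding gene F09A5.3 and on its opposite strand. Distances below run from the annotated hairpin, since the starts of the primary transcripts were not used here.

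Each deposited peak has a signal value and a q-value from the authors' peak caller. Each replicate has a relaxed list of peaks, a pooled list was made from both replicates, and an optimal list passed the irreproducible discovery rate threshold. The relaxed lists hold 30000 peaks in replicate 1, 28119 in replicate 2 and 30000 in the pooled list, of which 228, 729 and 420 have a q-value of 0.05 or less. The authors' own name for the relaxed lists is peaks and background. The optimal list holds 276 peaks, which are the 276 pooled peaks of highest signal, from 102 upward. Signal values differ in scale between lists and were compared only within a list. Read depth is unknown. The family was selected on the signal values of its peaks in these same lists, so its values are descriptive and no test was made of them.

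CEH-24-GFP peaks in the optimal list were found at mir-51 and mir-52. The other 4 genes had none, although mir-53 had a weaker peak past the q-value threshold in the pooled list. The X cluster had peaks in every list, but none with a q-value of 0.05 or less. Counted by gene, 2 of 6 family genes had an optimal peak, against 3 of all 261 miRNA genes (1.15%) and 253 of 19985 protein-coding genes (1.27%). The family holds 2 of these 3 miRNA genes, and the third is mir-58a. A pooled peak with a q-value of 0.05 or less was found at 3 of 6 family genes, against 2.68% of all miRNA genes and 1.91% of protein-coding genes. Any pooled peak was found at all 6 family genes, a state shared by 57.5% of miRNA genes and 51.6% of protein-coding genes, so it says little about the family. For protein-coding genes the window ran from 2000 bp upstream to 350 bp downstream of the annotated 5′ end, to match the length of the hairpin windows.

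The peak at cel-mir-51 was the highest of the family in every list. Its signal reached 122 in replicate 1, 153 in replicate 2 and 272 in the pooled list (IV 11026057 to 11026335, summit 11026168). These values placed it at rank 36 of replicate 1, rank 16 of replicate 2 and rank 23 of the pooled list. Both replicates thus had it among their strongest peaks, with the lowest q-value that each list contains (0.0209 in replicate 1, 0.00662 in replicate 2 and 0.00304 in the pooled list). Each of these values is shared by many peaks, 120, 76 and 165 of them, so it does not order the strongest ones. The summit lay upstream of the hairpin in all 3 lists, by 17 bp in replicate 1, 81 bp in replicate 2 and 56 bp in the pooled list.

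The sequence around the pooled mir-51 summit is shown because it holds both the miRNA and a match to the letters of the B box. It covers chrIV:11026068-11026268 of ce11 on the minus strand, the strand of mir-51. Capitals mark, in order, a match to the B box and the mature miR-51.

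mir-51 summit window: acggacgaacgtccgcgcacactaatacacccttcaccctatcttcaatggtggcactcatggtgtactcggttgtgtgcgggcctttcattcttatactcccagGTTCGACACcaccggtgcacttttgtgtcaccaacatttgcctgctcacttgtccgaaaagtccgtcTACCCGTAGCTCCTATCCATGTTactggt

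The B box is the internal promoter element of tRNA genes and some other genes transcribed by RNA polymerase III. It was searched on both strands as G, then A or T, then TC, then A or G, then A, any 2 bases and C. The match GTTCGACAC had its centre 9 bp from the summit. The pooled summit, the replicate 2 summit and the match lie inside F36H1.17 (WBGene00219935, IV 11026131 to 11026219), an 89 bp gene annotated only as ncRNA on the same strand, whose 3′ end is 18 bp from the mir-51 hairpin. The replicate 1 summit lies outside it, between F36H1.17 and the hairpin. The match begins at base 57 of F36H1.17, counted from its 5′ end. A B box match was present in 44.6% of the 276 optimal windows and in 7.24% of the 30000 pooled windows, and a summit inside a gene of the ncRNA class in 25.4% and 2.11%. No gene annotated as tRNA, snoRNA, snRNA or rRNA lay within 250 bp of any of the 4 family summits shown here. A match is a run of letters, and neither transcription of F36H1.17 nor binding by another factor was measured.

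The peak at cel-mir-52 was second to it in the family in every list. Its signal reached 111 in replicate 1, 119 in replicate 2 and 225 in the pooled list (IV 14033897 to 14034125, summit 14033993), at ranks 51, 32 and 38. As at mir-51, the q-value was the lowest in each list. The pooled summit lay 15 bp upstream of the hairpin's 5′ end, the replicate 1 summit 5 bp upstream, and the replicate 2 summit 9 bp inside the hairpin. The mir-52 peak was therefore closer to its hairpin than the mir-51 peak in each list. The window is shown for comparison with that of mir-51 (chrIV:14033893-14034093, plus strand, mature miR-52 in capitals).

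mir-52 summit window: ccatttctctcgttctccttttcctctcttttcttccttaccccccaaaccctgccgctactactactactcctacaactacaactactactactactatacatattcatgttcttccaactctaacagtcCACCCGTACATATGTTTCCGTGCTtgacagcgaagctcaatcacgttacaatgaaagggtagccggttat

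This window held no B box match, and its longest run of letters shared with the mir-51 window on either strand was 9 bp. The pooled summit lay inside 2 overlapping genes of the ncRNA class, 1 on each strand. The window was 43.78% G and C, against 51.74% at mir-51. The median was 45.77% in optimal windows and 35.32% in pooled windows. All 166 stretches of 36 bases in the mir-52 window occurred once in the genome, and the same held for each of the other 3 windows shown.

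**Figure D1:**
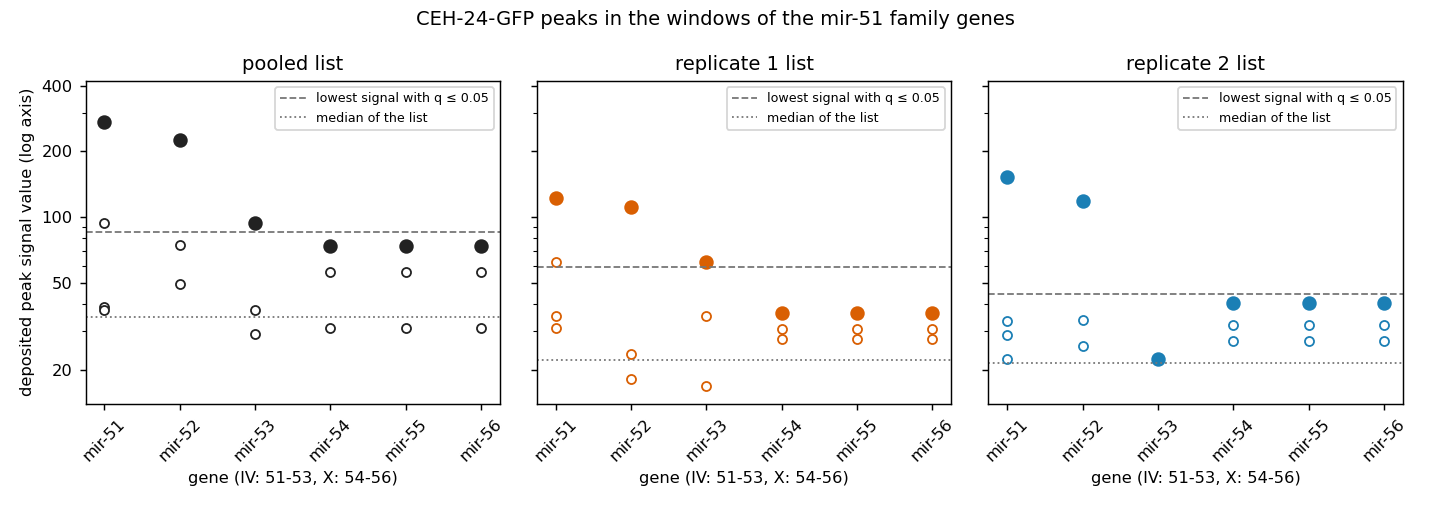
Deposited signal value (log axis) of every peak in the window of each family gene, in the pooled list, the replicate 1 list and the replicate 2 list. Filled points are the highest peak of a gene, open points its other peaks, the dashed line the lowest signal with a q-value of 0.05 or less and the dotted line the list's median; scales differ between lists. The filled points of mir-51 and mir-52 lie above the dashed line in all 3 panels, that of mir-53 in the pooled and replicate 1 panels, and those of mir-54 to mir-56, which are 1 shared peak, below it in all 3.

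The replicates differed at cel-mir-53. The highest peak in its window reached a signal of 62.5 in replicate 1, 22.5 in replicate 2 and 94.1 in the pooled list (IV 11027240 to 11027735, summit 11027488). It ranked 203 in replicate 1, with a q-value of 0.0420, and 12439 in replicate 2, with a q-value of 0.743, close to that list's median signal of 21.6. The pooled q-value was 0.0308 at rank 341, below the lowest optimal signal of 102. The call at mir-53 thus rests on replicate 1. In replicate 1, 3 of 6 family genes had a peak with a q-value of 0.05 or less (1.53% of all miRNA genes, 1.04% of protein-coding genes), and in replicate 2 the number was 2 of 6 (2.3% of all miRNA genes, 2.46% of protein-coding genes).

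The mir-53 summit lay past the hairpin, 203 bp downstream of its 5′ end and 105 bp beyond its 3′ end, and so 1376 bp upstream of mir-51. Directly at the 5′ end of mir-53, 7 bp upstream, the pooled list had a peak of 37.7 with a q-value of 0.794. It overlaps the stronger peak of 94.1, which itself spans the whole mir-53 hairpin, and replicate 2 had only 1 peak in the mir-53 window. The 2 family genes with the most similar hairpins, mir-52 and mir-53, thus differed in their highest pooled signal, 225 against 94.1. They also differed in the place of that summit relative to the hairpin. The window around the mir-53 summit is shown because its base content differs from that of the other peaks (chrIV:11027388-11027588, minus strand, with no mature miRNA or B box match and hence no capitals).

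mir-53 summit window: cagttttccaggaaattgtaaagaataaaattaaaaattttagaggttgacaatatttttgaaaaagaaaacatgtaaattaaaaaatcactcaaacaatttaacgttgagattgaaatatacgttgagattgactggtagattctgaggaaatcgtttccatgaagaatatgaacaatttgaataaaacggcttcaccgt

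The share of G and C was 27.86%, the lowest of the 4 family windows, and TTTTT occurred 5 times over both strands, overlaps counted. TTTTT, a run that can end RNA polymerase III transcripts, was absent from the other 3 windows, whereas 82.6% of optimal and 90.7% of pooled windows held it.

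At the X cluster, cel-mir-54, cel-mir-55 and cel-mir-56 shared all their peaks. The highest reached a signal of 36.2 in replicate 1, 40.6 in replicate 2 and 74.05 in the pooled list (X 13144514 to 13145009, summit 13144762). Its q-values were 0.468, 0.0932 and 0.113 and its ranks 2102, 1143 and 714, so it passed the threshold in none of the 3 lists. The pooled and replicate 2 summits lay inside the mir-56 hairpin, 25 bp and 23 bp from its 5′ end, and the replicate 1 summit lay 11 bp upstream of it. Upstream of mir-54, the first hairpin of the cluster, the nearest pooled summit was 382 bp away, with a signal value of 56.1 and a q-value of 0.434. The window at the mir-56 hairpin is shown with mature miR-56 in capitals (chrX:13144662-13144862, minus strand).

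mir-56 summit window: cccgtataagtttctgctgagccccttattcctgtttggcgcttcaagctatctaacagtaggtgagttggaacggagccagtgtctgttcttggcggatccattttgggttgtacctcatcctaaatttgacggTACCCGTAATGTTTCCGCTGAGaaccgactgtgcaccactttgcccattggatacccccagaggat

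The NK-2 class site TNAAGTG was absent from all 4 windows, which span 100 bp to either side of the summit, and was found in 6.16% of optimal and 9.08% of pooled windows. Its core AAGTG occurred in the mir-51 window and once in the mir-56 window. The mir-51 matches were on the opposite strand, with the ends farther from the hairpin 5 bp and 34 bp upstream of it. The core was absent at mir-52 and mir-53, and was present in 41.7% of optimal and 36% of pooled windows.

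**Figure D2:**
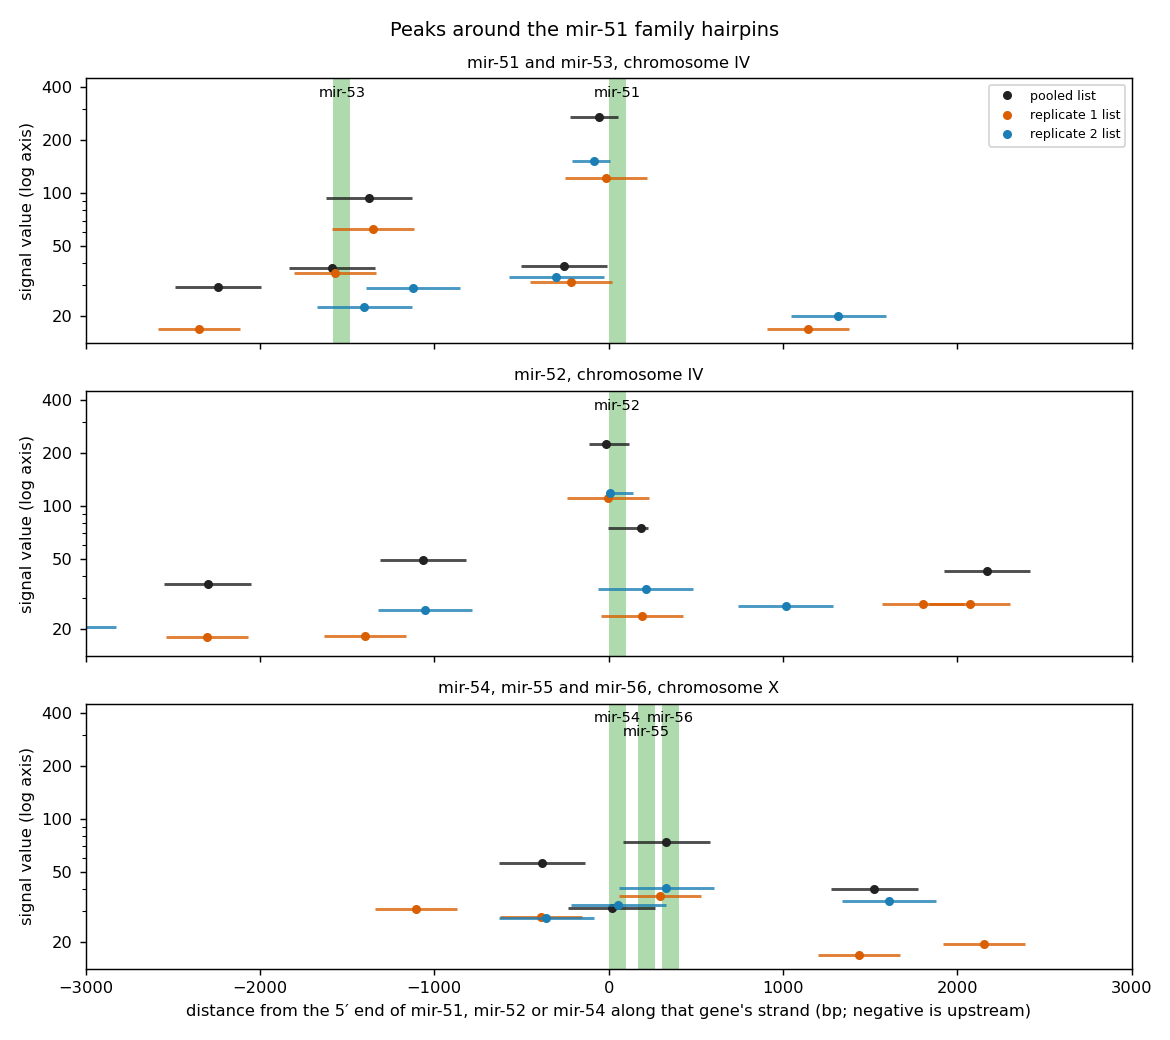
Peaks within 3000 bp of the 5′ end of mir-51 (top), mir-52 (middle) and mir-54 (bottom), with distance along that gene's strand on the x axis and the deposited signal value on a log y axis. Lines span each peak, points mark summits, colours give the list and green bands are the hairpins. The summits of the highest peaks stand at the hairpin's 5′ end at mir-51 and mir-52, between the hairpins at mir-53, and at the mir-56 hairpin on X.

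Set side by side, the highest peak on chromosome IV exceeded the highest peak of the X cluster within each list. The ratio of the mir-51 to the X cluster signal was 3.38 in replicate 1, 3.77 in replicate 2 and 3.67 in the pooled list. For mir-52 the ratio was 3.08, 2.93 and 3.03. For mir-53 it was 1.73 in replicate 1 but 0.554 in replicate 2, and 1.27 in the pooled list, so the order of mir-53 and the X cluster turned between replicates. In number of peaks, the windows of the IV genes held 8 different pooled peaks and those of the X genes 3. These counts are not on a like basis, because the X windows overlap almost wholly and so cover less sequence. Pooled peaks on the 2 chromosomes as a whole had a like median signal, 34.1 on IV and 34.3 on X. Strong peaks were more frequent on X: 1.03% of IV peaks and 1.84% of X peaks had a q-value of 0.05 or less. The optimal list held 30 peaks on IV and 64 on X. Outside the family, a pooled peak with such a q-value was found at 1 of 47 miRNA genes on IV and 0 of 71 on X.

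The mir-51 and mir-52 peaks were higher than their surroundings, which is no added support because the family was selected on these signal values. Every optimal peak has a signal of 102 or more, against a pooled median of 34.7. Within 10 kb of the mir-51 summit were 9 other pooled peaks, with a median signal of 37.7 and a highest of 94.1, the mir-53 peak. Within 10 kb of the mir-52 summit were 11 others, with a median of 29.7 and a highest of 74.7. The 2 summits exceeded these medians 7.22-fold and 7.57-fold, against 1.93-fold for the X cluster peak, whose 7 neighbours had a median of 38.4. The nearest other optimal peak was 448 kb from mir-51, 648 kb from mir-52 and 23.4 kb from the X cluster. The first pooled peaks beyond either edge of the 6 windows, some of them inside a neighbouring member's window, had signal values from 29.3 to 42.4 and ranks no higher than 7892.

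**Figure D3:**
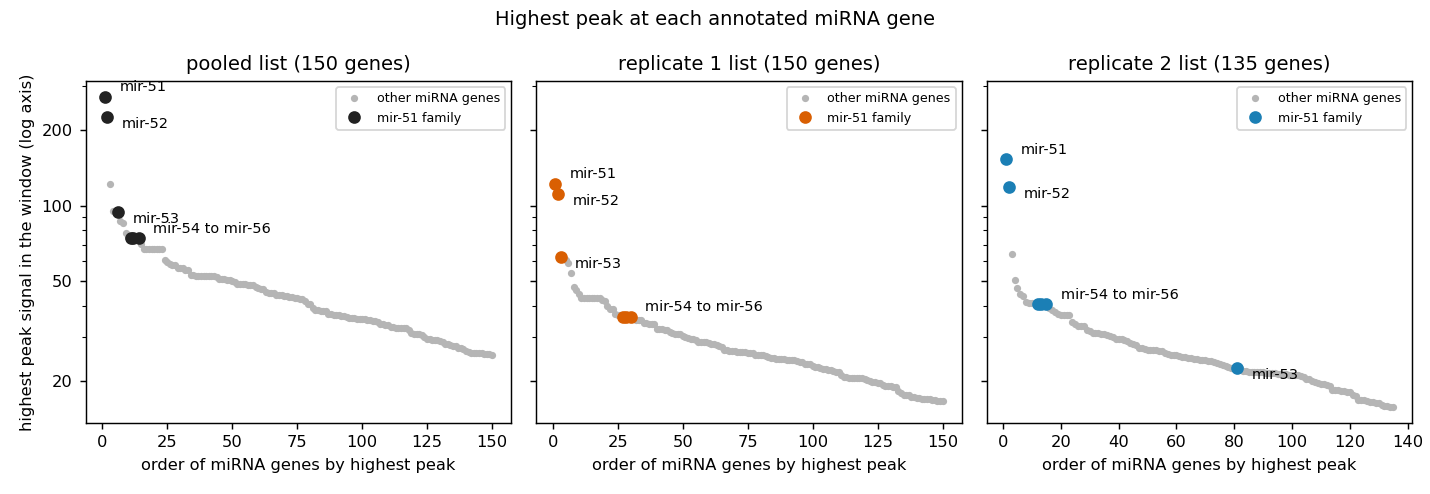
Highest peak signal (log y axis) in the window of every annotated miRNA gene with a peak, in descending order on the x axis, for the pooled, replicate 1 and replicate 2 lists, which cover 150, 150 and 135 genes. Coloured points are the mir-51 family and grey points the other miRNA genes. Points for mir-51 and mir-52 lead each panel, while mir-53 moves from order 3 in replicate 1 to order 81 in replicate 2.

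Ordered by highest peak, mir-51 and mir-52 held places 1 and 2 of all miRNA genes in each of the 3 lists. The gene in place 3 of the pooled list was mir-58a, at 122, below mir-52 at 225. Of the 150 miRNA genes with a pooled peak, the 144 outside the family had a median of 41.2. The place of mir-53 was 6 in the pooled list, 3 in replicate 1 and 81 in replicate 2, and that of the X cluster was 11, 27 and 12. These places are shared by mir-54, mir-55, mir-56 and mir-55b, a further miRNA gene annotated on the strand opposite mir-55.

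The miRNA genes outside the family with signals nearest to those of mir-51 were mir-58a, mir-5549 and mir-354, by the sum of absolute log2 ratios over the 3 lists. The sums were 3.47, 4.42 and 4.63, against 0.78 for mir-52. The mir-58a peak (chromosome IV) reached 59 in replicate 1, 63.9 in replicate 2 and 122 in the pooled list, with its summit 119 bp upstream of the hairpin. That of mir-5549 had 60.7, 41.2 and 95.2, with its summit 81 bp upstream. That of mir-354 had 53.7, 40.7 and 94.2, with its summit 773 bp upstream. All 3 lay far below mir-51 and mir-52 in each list, so the likeness is loose.

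Of 10 genes for the machinery that makes and uses miRNAs, 8 had a pooled peak in the window, against 51.6% of protein-coding genes. None had one with a q-value of 0.05 or less, against 1.91% of protein-coding genes, a share at which none of 10 is no result about the machinery. In replicate 2 alone, where 2.46% of protein-coding genes passed, ain-1, for a GW182-type partner of the miRNA Argonautes, had a signal of 62.4 (q = 0.0113), and xrn-2, for an exonuclease that degrades miRNAs, had 44.4 (q = 0.0494). Their highest peaks in replicate 1 reached 31.2 and 24.3, with q-values of 0.641 and 0.819, so neither was past the threshold in both replicates. The other 8, drsh-1, pash-1, dcr-1, alg-1, alg-2, ain-2, nhl-2 and paxt-1, passed in no list. Apart from paxt-1, they cover the Drosha complex, Dicer, the Argonautes and their cofactors. The mir-35 family, another miRNA family needed in the embryo, lies on chromosome II as mir-35 to mir-42. All 8 of its genes had a pooled peak, against 57.5% of miRNA genes, but 7 of them share theirs. None passed the threshold in any list, against 2.68% of miRNA genes in the pooled list, so that count says little about the mir-35 family. The shared peak had a signal of 67.4 (q = 0.194). The window of cdh-3, a cadherin gene reported as a target of the mir-51 family, held a peak of 18.9 in replicate 1 (q = 0.891) and of 16.4 in replicate 2 (q = 0.943), both below their list's median, and none in the pooled list.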

How the data were processed

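The samples were 2 ChIP-seq replicates of 1 group. Per the descriptions deposited with the files, each relaxed list derives from the alignments of 1 or both replicates and from a further file, of unstated kind, that is shared by all 3 lists, so the replicate lists are not wholly independent. The signal value of each peak and its −log10 q-value were used as deposited by the authors, the q-value as its antilog. The aligner, peak caller and versions were not given in the sources used here. Lists on ce11 were used, whose peaks all end within the reference chromosomes of WBcel235, and lists on ce10 were not used.

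Peaks were assigned to genes of Ensembl release 115 by summit, and sequence came from the RefSeq genome, in Python 3.11.15 (numpy 2.4.6, pandas 2.3.3, matplotlib 3.10.9). Ranks are by signal within a list. Assignment was tested on simulated summits. Windows for sequence were 201 bp. No test was made: the family, the gene lists and the words were chosen with earlier results of these data known. The text names the 6 genes, their peaks, the 3 miRNA genes nearest in signal, and list genes past q of 0.05. Replicates come from separate biosamples per the labels. Alternatives were other windows, a stricter q, each replicate alone, and other spans around the summit. Since depth is unknown, no interval was based on reads.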

Additional observations from a re-analysis of the deposited data

How the results depend on the processing

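The number of family genes with an optimal peak was 2, with a pooled q-value of 0.05 or less 3, and with any pooled peak 6. These counts moved by no more than 1.5 times with a window of 1000 bp or 5000 bp upstream, with 250 bp counted from the 5′ end, with 1 bp of peak overlap in place of the summit, or with a q-value of 0.01. With each replicate alone, the counts for a q-value of 0.05 or less ranged from 2 to 3 and those for any peak from 6 to 6. There is no optimal list per replicate; the 276 highest peaks of a replicate, taken in its place, were found at 2 to 3 family genes. The highest pooled peaks of mir-51, mir-52, mir-53, mir-55 and mir-56 were unchanged in signal under every window tried. For mir-54, counting 250 bp from the 5′ end left the shared peak outside the window and gave 56.1 at rank 2455, where the main window gave 74.05 at rank 714. Leaving out a replicate gave ranks of 16 to 36 for mir-51, 32 to 51 for mir-52, 203 to 12439 for mir-53 and 1143 to 2102 for each gene of the X cluster. The ratio of the highest IV to the highest X signal, 3.67, ranged from 3.38 to 3.77. With 50 bp each way of the summit, AAGTG was in 1 window rather than 2, and TTTTT stayed in 1. With 150 bp each way, TTTTT was in 4 windows rather than 1. The absence of TTTTT at 3 of the summits thus does not hold for windows wider than 201 bp. No paired analysis was possible because there is 1 group. Depth is unknown, so whether the weak X cluster peaks are limited by depth was not tested.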

Other observations

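The mir-51 and mir-52 peaks had a weaker companion summit at a short distance in all 3 lists, and the mir-53 peak in the pooled list and replicate 1. Measured from the mir-51 summit, the nearest other summit was 199 bp away in the pooled list and in replicate 1, and 219 bp away in replicate 2, upstream each time, with signal values of 38.6, 31.2 and 33.6. At mir-52 it was 202, 199 and 204 bp away, downstream each time, with 74.7, 23.6 and 33.8. At mir-53 it was 210 and 220 bp away upstream in the pooled list and replicate 1, with 37.7 and 35.1. In replicate 2 it was 279 bp away downstream with 28.8, above the 22.5 of the mir-53 peak itself. No 2 summits of a list lay closer than 199 bp in any of the 3 lists. Among the 276 highest pooled peaks, 173 (62.7%) had their nearest summit at 190 to 220 bp, against 3889 of the other 29724 (13.1%). The distance range was chosen after the companion summits had been seen, and no test was made.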
